A study of Homo sapiens with 6 samples.

Results

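RCC10 is an established human line of clear cell renal carcinoma, and the comparison described here sets its HIF double-knockout cells against its parental cells, gene by gene. It used 4 of the 6 libraries of the study, 2 of parental cells and 2 of double-knockout cells, chosen by the genotype in the library names. The double-knockout cells had been infected with lentivirus carrying guide RNAs and kept under puromycin, per the labels, with HIF-1alpha and HIF-2alpha (the products of HIF1A and EPAS1) as the targets. The parental cells are labelled as controls and no virus or drug is named for them, so infection and selection cannot be told apart from the loss of the HIF genes. The other 2 libraries, from cells given a VHL lentivirus (VHL-restored cells), entered the estimate of spread and are set beside the comparison where they differ from it. All cells grew in DMEM with 10% fetal bovine serum. Total RNA was column-purified and treated with DNase, and libraries were made with an mRNA kit. Not given in the sources used here are the guide sequences, the clonal or pooled nature of the knockout, and any statement that libraries of a group came from separate cultures. The p-values therefore reflect the spread of these libraries alone, which could be technical.

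The HIF alpha subunits pair with ARNT and activate genes through a short DNA core at promoters and enhancers. VHL directs their destruction when oxygen is present, and clear cell renal carcinoma typically lacks working VHL, which leaves the HIF pathway on in normal oxygen. HIF-2alpha is regarded as the main driver of this tumour, and its best known outputs are genes of glycolysis, blood vessel growth, pH control and lipid storage. A list of 126 such classical hypoxia readouts was set aside, and the account below is mainly of the remaining genes.

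Total counts were 29454611 and 22248126 in parental and 29929116 and 26085121 in double-knockout cells, and 18273 genes with a count in at least 1 of the 6 libraries were tested. Levels are given as CPM, counts scaled to the TMM-adjusted size of the library (a scaling that aligns the bulk of genes), and 3 counts correspond to 0.101 to 0.132 CPM in a single parental or double-knockout library. Such counts come from whole cultures, so fewer cells of a type and less RNA per cell cannot be told apart. Markers of renal epithelium were present, with a summed level of 2021 and 1958 CPM in parental and 2548 and 2434 CPM in double-knockout cells. The kidney lineage factor PAX8 and the keratins KRT8 and KRT18 were among them, whereas LRP2 and NAT8 had no count in either group. Leukocyte markers summed to 70.52 to 76.16 CPM in these 4 libraries, most of it CD68 in parental cells (64.5 and 60.3 CPM) and CD74 in double-knockout cells (48.7 and 47.2 CPM), and the defining genes PTPRC, CD3E and CD4 had no count. Endothelial markers summed to 1.985 to 2.719 CPM with no count of PECAM1, KDR or CLDN5. Fibroblast markers summed to 18.2 and 18.26 CPM in parental and 6.189 and 6.37 CPM in double-knockout cells, with no count of COL3A1. The part of these markers in other results was not tested.

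HIF1A was at 69.5 and 72.9 CPM in parental and 29.6 and 31.6 CPM in double-knockout cells, and EPAS1 was at 352.1 and 348.9 CPM against 44.4 and 48.0 CPM. Neither gene's libraries overlapped between the groups, and both kept reads, which a count per gene cannot assign to an intact or an edited transcript. ARNT, the shared partner, was at 69.0 and 66.8 CPM against 50.2 and 53.6 CPM, which is -0.39 ± 0.07 (SE) as a log2 fold change (edgeR, adjusted p = 1.7e-05). VHL was at 38.8 and 39.5 CPM in parental and 43.3 and 47.4 CPM in double-knockout cells (log2 fold change 0.21, adjusted p = 0.014, edgeR), a call that was lost without replicate 1 or 2 of the parental or replicate 2 of the double-knockout cells, and at 651.5 and 722.7 CPM where it was restored. In VHL-restored cells HIF1A was at 304.1 and 286.2 CPM, above parental cells, and EPAS1 was at 362.7 and 369.4 CPM.

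The change reached across the transcriptome. Of 18273 genes tested, 9888 (54.1%) passed an adjusted p of 0.05 by edgeR's quasi-likelihood test, 4858 of them higher (26.6%) and 5030 lower (27.5%). Centring each library on the median gene instead gave 6010 higher and 4130 lower, which moved the share of higher calls from 49.1% to 59.3%, because that scaling raises the median log2 fold change of all tested genes from 0.00 to 0.07 and that of genes of at least 1 CPM from 0.01 to 0.13. The share called followed the level of the gene, from 14.6% of genes under 1 CPM to 66.1% at 1 to 10 CPM, 72.3% at 10 to 100 CPM and 78.2% above 100 CPM. Below the 10 CPM mark the lower calls outnumbered the higher ones (1308 against 733 at 1 to 10 CPM), and above 100 CPM the order was turned, with 1105 higher and 748 lower.

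Large changes were mostly losses, and mostly outside the classical readouts. By the test and a change of at least 2-fold, 1107 genes were higher (6.06% of those tested) and 1875 lower (10.3%), and outside the classical readouts, where 53.9% of 18149 genes passed in all, 6.03% were higher and 10.0% lower by as much. Of genes with at least 1 CPM in the higher group, 256 rose and 615 fell at least 4-fold, 96 and 322 at least 8-fold, and 21 and 111 at least 32-fold. Of the 871 genes changed at least 4-fold, 38 (4.36%) are on the list of classical readouts, which holds 0.679% of the genes tested. By that measure 30.6% of the readouts and 4.77% of all genes tested changed at least 4-fold. Outside that list 252 genes rose and 581 fell by that much. Genes outside the list that fell at least 2-fold made up 7.45% and 7.49% of all CPM in parental cells and 2.13% and 2.21% in double-knockout cells. Those that rose at least 2-fold went from 2.55% in both parental libraries to 6.96% and 6.84%. The 2 libraries of a group thus gave nearly the same shares. The classical readouts themselves did not move as a block, with 81 of 124 lower, 24 higher and 19 not passed, and a median log2 fold change of -0.80 against 0.00 over all genes tested.

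**Figure D1:**
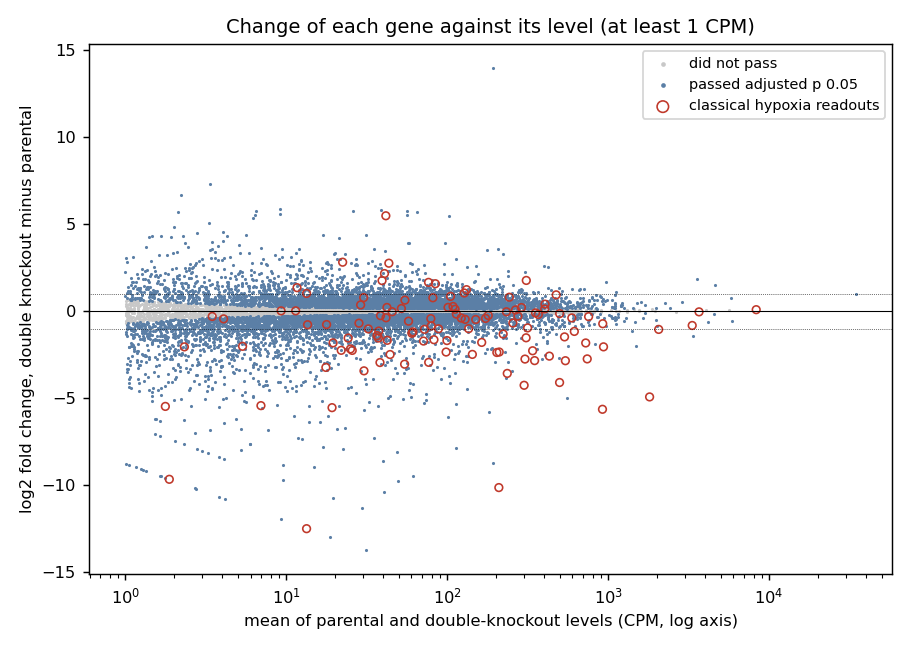
Log2 fold change of double-knockout over parental cells (vertical axis) against the mean level of both groups in CPM (horizontal log axis), 1 point per gene with a mean of at least 1 CPM over these groups. Blue points passed an adjusted p of 0.05, grey points did not, red circles are classical hypoxia readouts and dotted lines mark a 2-fold change; most points beyond 4-fold in either direction are not circled.

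The genes raised most outside the readouts were often silent in parental cells. They were picked for size among genes whose libraries did not overlap, so the lack of overlap is not a finding. SERPINB2, an intracellular inhibitor of urokinase-type plasminogen activator, had no count in 1 parental library and 0.0441 CPM in the other, against 409.2 and 357.0 CPM in double-knockout cells. In VHL-restored cells it was at 0 and 0.0357 CPM, and the difference between both engineered lines, a contrast in which 56.0% of all genes passed, was 14.06 on the log2 scale (adjusted p = 5e-31, edgeR). PLAT, the tissue plasminogen activator of the same proteolytic system, was at 2.43 and 2.51 CPM in parental and 127.0 and 129.6 CPM in double-knockout cells, a 51.9-fold rise (adjusted p = 9.9e-29, edgeR). Both a protease and a protease inhibitor of the plasmin system were therefore among the 15 most raised genes.

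LTBP1, which tethers latent TGF-beta in the matrix, had no count in parental cells and 1.27 and 2.02 CPM in double-knockout cells, at least 28.7-fold higher (3 counts over the group as the floor). The giant cadherin FAT3 and the membrane protein TMEM200A were likewise without a count in parental cells, and were at least 21.8-fold and 19.0-fold higher. These 3 genes stayed near 1 to 2 CPM, a low level even after the rise. Genes that reached a high level were CALB2, the calcium-binding protein calretinin, CLDN16, a tight junction protein of the kidney tubule, and HMGA1, an architectural chromatin protein. CALB2 went from 2.22 and 1.76 CPM to 117.8 and 103.7 CPM, CLDN16 from 1.52 and 1.19 CPM to 77.6 and 75.1 CPM, and HMGA1 from 2.63 and 1.99 CPM to 117.1 and 102.6 CPM. All 3 rose between 47.6-fold and 56.4-fold. They parted in the VHL-restored cells, where CLDN16 was at 195.8 CPM and HMGA1 at 136.9 CPM on average but CALB2 at 0.161 CPM. CALB2 was thus 9.39 higher on the log2 scale in double-knockout than in VHL-restored cells (adjusted p = 5.2e-28, edgeR), and CLDN16 lower by 1.36 (adjusted p = 7.1e-18, edgeR).

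The rest of the 15 were of mixed kinds. PDCD1LG2, the checkpoint ligand PD-L2, had 2 counts in both parental libraries together and 6.33 and 7.07 CPM in double-knockout cells, 174.7-fold higher by the ratio (95% counting interval 48.0 to 1448). SLAMF8, a receptor better known from myeloid cells, went from 1.21 and 0.573 CPM to 54.2 and 48.2 CPM. ABCC9, the sulfonylurea receptor subunit of ATP-gated potassium channels, rose 58.4-fold to 16.9 and 18.9 CPM, and ANK3, the membrane-skeleton adaptor ankyrin G, rose 54.6-fold to 12.6 and 12.9 CPM. KRT2, an epidermal keratin, and FAM43A were also among the 15, with 5.10 and 3.77 CPM and 18.6 and 17.2 CPM in double-knockout cells. In VHL-restored cells PDCD1LG2 (6.17 CPM) was close to its double-knockout level, and the log2 difference of 0.12 did not pass the test (adjusted p = 0.47, edgeR). The mean of SLAMF8 there was 1.70 CPM, which is 4.91 lower on the log2 scale than in double-knockout cells (adjusted p = 9.1e-24, edgeR).

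The genes lowered most included several that became undetectable. TIMP2, an inhibitor of matrix metalloproteinases, fell from 39.3 and 35.2 CPM in parental cells to no count in either double-knockout library, at least 682-fold lower, and was at 1.23 CPM in VHL-restored cells. MMP2, the gelatinase that TIMP2 binds, fell beside it, from 12.9 and 10.8 CPM to 0.0684 and 0.0388 CPM. The noncoding RNA LOC100506134 fell from 62.7 and 63.2 CPM to no count, at least 1154-fold lower. MYH13, a myosin heavy chain of extraocular muscle, went from 17.7 and 19.2 CPM to no count in either engineered line. ENPP3, an ectonucleotide phosphodiesterase of kidney and mast cells, and ITIH5, a hyaluronan-binding inter-alpha-trypsin inhibitor chain, were also without a count in both lines, from 5.93 and 5.12 CPM and from 7.78 and 7.59 CPM. NDUFA4L2, a mitochondrial protein known as a HIF target although it is not on the list of readouts used here, fell from 60.1 and 57.3 CPM to 1 count in both libraries together.

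Other losses among the 15 were as deep. VAV3, a guanine nucleotide exchange factor, fell from 40.4 and 38.1 CPM to 0 and 0.0388 CPM, and SEMA5B, a guidance molecule, from 82.9 and 78.2 CPM to 0.103 and 0 CPM. SMO, the signal-transducing receptor of the Hedgehog pathway, fell from 19.3 and 18.7 CPM to 0.0342 and 0 CPM, 1048-fold lower by the ratio (95% counting interval 187.7 to 41450). ENPEP, the angiotensin-cleaving aminopeptidase A of the kidney brush border, fell 740-fold from 120.8 and 124.2 CPM. APBB1IP, an adaptor that links Rap1 to actin, and the noncoding RNA LINC00462 fell from 3.20 and 3.44 CPM and from 4.85 and 6.00 CPM to no count. VHL-restored cells also had little of these transcripts, at most 0.750 CPM in a library.

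Another group of losses was particular to the double knockout, by the test of the difference between the engineered lines. EPHA7, a receptor tyrosine kinase for ephrins, fell 888-fold from 98.2 and 100.6 CPM to 0.0684 and 0.155 CPM, while VHL-restored cells held 146.2 and 133.7 CPM, a log2 difference of -10.27 (adjusted p = 1.3e-29, edgeR). CDH1, encoding E-cadherin, fell from 3.57 and 3.53 CPM in parental cells to no count in double-knockout cells. It was above its parental level in VHL-restored cells, at 8.51 and 8.36 CPM (log2 difference -10.84, adjusted p = 4e-19, edgeR). ZNF542, whose current symbol marks a pseudogene, fell from 8.32 and 8.38 CPM to no count and kept 6.44 and 6.83 CPM in VHL-restored cells (log2 difference -10.50, adjusted p = 4.9e-18, edgeR). TFPI, the inhibitor of the tissue factor pathway of coagulation, fell from 26.1 and 28.5 CPM to 0.308 and 0.350 CPM beside 23.8 and 28.3 CPM in VHL-restored cells (log2 difference -6.29, adjusted p = 5.7e-23, edgeR).

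**Figure D2:**
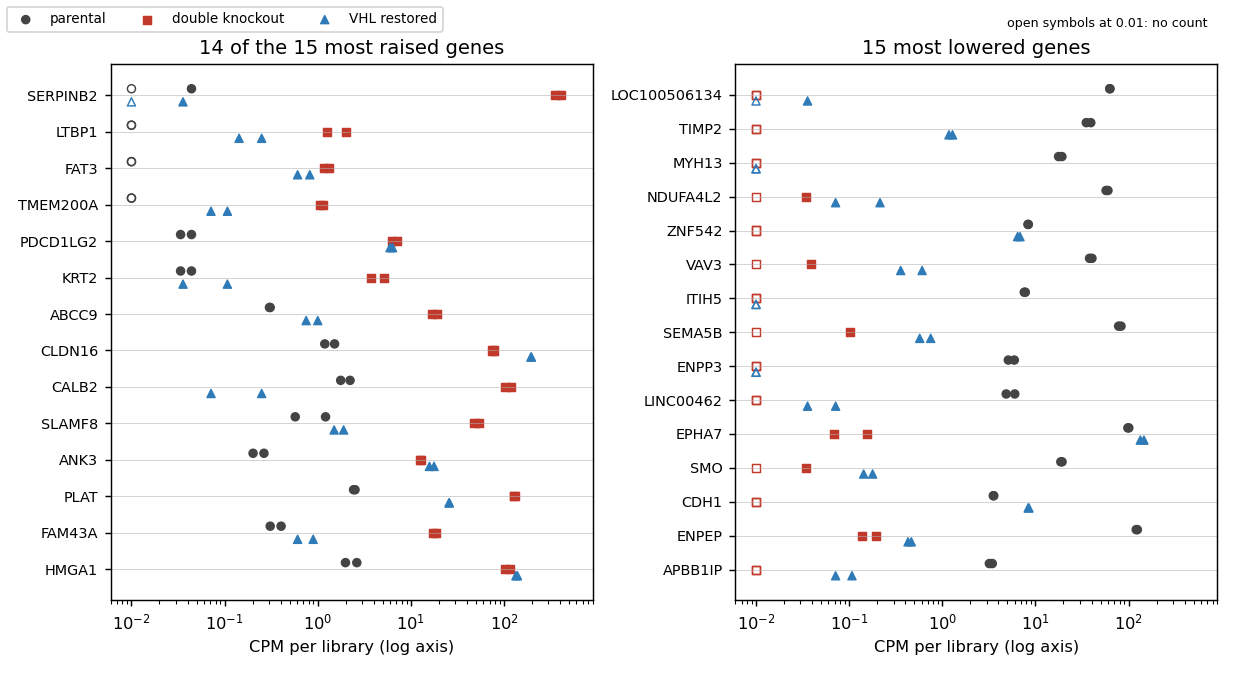
Levels in CPM (log axis) of 14 of the 15 most raised and of the 15 most lowered genes outside the classical hypoxia readouts, 1 symbol per library, with open symbols at 0.01 for a library without a count. Raised genes such as SERPINB2 and CALB2 are high in double-knockout cells alone of the 3 groups, and CLDN16, ANK3 and HMGA1 are also high in VHL-restored cells. Of the lowered genes ZNF542 stays near its parental level in VHL-restored cells, and EPHA7 and CDH1 lie above theirs.

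Promoters are shown for the 3 most raised and 3 most lowered of these genes that have an entry in the RefSeq table, because the HIF core and the sites of stress-activated factors are what a reader would look for there. Each window runs from 250 bases before to 50 bases after 1 start listed for the gene, 300 bases in all. It is written 5′ to 3′ on the gene's strand, in RefSeq's GRCh38.p14 build. A gene can have other starts, and whether the cells used the one shown, for VAV3 as for the others, was not tested. The build behind the counts is not settled. Capitals mark matches on either strand to the HIF core (ACGTG or GCGTG), the AP-1 site (TGAGTCA or TGACTCA), the NF-kB site (GGGA, N and TTTCC in a row) or the interferon response element (GAAA, NN and GAAA in a row). The raised genes come first.
SERPINB2, chr18:63887455-63887754, plus strand: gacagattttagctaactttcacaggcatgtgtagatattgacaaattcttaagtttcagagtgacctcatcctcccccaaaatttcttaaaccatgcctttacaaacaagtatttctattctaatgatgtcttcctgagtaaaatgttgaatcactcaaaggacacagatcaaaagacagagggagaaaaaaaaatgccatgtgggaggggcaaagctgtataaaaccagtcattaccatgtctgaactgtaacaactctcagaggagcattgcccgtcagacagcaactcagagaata
LTBP1, chr2:32946703-32947002, plus strand: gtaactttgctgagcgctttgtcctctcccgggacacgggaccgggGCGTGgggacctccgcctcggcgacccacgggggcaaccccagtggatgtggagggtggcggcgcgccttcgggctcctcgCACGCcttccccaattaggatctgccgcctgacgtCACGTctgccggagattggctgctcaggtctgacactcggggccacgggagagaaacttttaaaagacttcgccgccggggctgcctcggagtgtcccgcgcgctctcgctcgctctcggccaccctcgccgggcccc
TMEM200A, chr6:130365767-130366066, plus strand: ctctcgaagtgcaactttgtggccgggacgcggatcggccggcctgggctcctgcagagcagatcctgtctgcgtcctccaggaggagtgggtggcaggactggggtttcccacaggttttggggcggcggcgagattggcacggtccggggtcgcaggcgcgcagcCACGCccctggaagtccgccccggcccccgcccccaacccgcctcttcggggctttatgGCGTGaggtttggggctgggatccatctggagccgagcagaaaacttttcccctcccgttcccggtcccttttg
MYH13, chr17:10372957-10373256, minus strand: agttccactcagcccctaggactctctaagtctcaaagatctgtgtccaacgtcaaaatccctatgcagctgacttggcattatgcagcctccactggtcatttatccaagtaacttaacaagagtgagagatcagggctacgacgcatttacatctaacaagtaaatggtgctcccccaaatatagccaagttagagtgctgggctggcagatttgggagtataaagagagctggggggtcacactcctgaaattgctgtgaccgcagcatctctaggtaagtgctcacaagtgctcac
NDUFA4L2, chr12:57240713-57241012, minus strand: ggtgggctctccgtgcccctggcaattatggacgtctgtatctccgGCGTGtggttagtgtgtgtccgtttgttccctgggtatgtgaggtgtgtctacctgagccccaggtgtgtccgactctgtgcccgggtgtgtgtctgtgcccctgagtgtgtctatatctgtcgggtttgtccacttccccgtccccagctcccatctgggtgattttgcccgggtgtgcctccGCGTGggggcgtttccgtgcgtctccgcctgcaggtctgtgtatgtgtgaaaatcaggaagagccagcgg
VAV3, chr1:107688450-107688749, minus strand: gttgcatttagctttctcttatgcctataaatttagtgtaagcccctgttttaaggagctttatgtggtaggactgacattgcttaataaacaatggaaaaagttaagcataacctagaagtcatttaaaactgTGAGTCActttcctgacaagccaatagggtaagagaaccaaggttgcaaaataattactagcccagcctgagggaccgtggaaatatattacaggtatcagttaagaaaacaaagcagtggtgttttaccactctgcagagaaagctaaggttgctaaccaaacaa
SERPINB2 and MYH13 held no match to any of the motifs, LTBP1 held 3 HIF cores and TMEM200A 2, NDUFA4L2 held 2 HIF cores, and VAV3 held 1 AP-1 site. The HIF core thus stood in promoters of both raised and lowered genes, and no match says only that these letters are not in this window.

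Over the 13176 tested genes with a RefSeq promoter, 59.5% held a HIF core, and 64.0% did among genes with at least 1 CPM in the higher group. The share was 77.8% of the 45 classical readouts that fell at least 2-fold. It was 53.8% of the 1049 other genes that fell as much and 60.9% of the 670 other genes that rose as much. The large losses outside the readouts therefore held the core less often than expressed genes at large did, as a description without a test. Among expressed genes the AP-1 site was in 2.90% of promoters, against 4.48% of those raised and 3.43% of those lowered outside the readouts. The NF-kB site was in 0.601%, against 1.19% and 0.286%, and the interferon element in 2.68%, against 4.48% and 1.91%. The counts behind these shares are small, with 8 raised and 3 lowered genes for NF-kB. Promoters rich in CpG (an observed over expected ratio of at least 0.6) made up 84.2% of expressed genes, 74.3% of those raised and 69.6% of those lowered at least 2-fold, and 52.9% of the 68 genes raised and 63.3% of the 199 genes lowered at least 8-fold. The share was 93.3% of the 45 classical readouts that fell at least 2-fold. Both forms of the HIF core contain a CG, and the part of CpG content in the shares with a core was not tested.

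Measured by the amount of RNA, the change looked different. FN1, the matrix protein fibronectin, was the most abundant transcript and took on the largest number of CPM, from 23990 and 22940 to 46770 and 44760 CPM, a 1.95-fold rise. It was higher still in VHL-restored cells, at 76060 and 67980 CPM (log2 difference between the engineered lines -0.65, adjusted p = 8e-14, edgeR). The ferritin light chain FTL rose 2.87-fold from 2451 and 2333 CPM to 7012 and 6693 CPM, whereas the heavy chain FTH1 rose 1.40-fold. SQSTM1, the autophagy receptor p62, rose 3.54-fold from 1608 and 1545 CPM to 5696 and 5450 CPM. CD44, the hyaluronan receptor, rose 3.19-fold, PRDX1, a peroxidase, 1.88-fold, TNFSF10, the death ligand TRAIL, 2.15-fold, and ADAMTS1, a matrix protease, 5.72-fold. In VHL-restored cells SQSTM1, CD44, PRDX1 and TNFSF10 were each lower than in double-knockout cells by 1.21 to 1.86 on the log2 scale (largest adjusted p = 8.2e-18, edgeR).

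The 10 genes outside the readouts that lost the largest amounts were of mixed kinds. CTSD, the lysosomal protease cathepsin D, fell 2.74-fold from 4958 and 4897 CPM to 1830 and 1767 CPM, and PSAP, the precursor of the saposins, fell 1.42-fold. SCD, the desaturase that makes oleate, fell 4.05-fold from 2425 and 2343 CPM to 534.3 and 641.8 CPM. CD24, a surface sialoglycoprotein, fell 31.8-fold from 1054 and 1097 CPM to 32.6 and 35.1 CPM, the largest fold among these abundant genes. SLC5A3, which imports the osmolyte myo-inositol, fell 6.42-fold, PDXK, the kinase that activates vitamin B6, 3.76-fold, VCAN, the proteoglycan versican, 2.21-fold, and ITGA3, an integrin chain, 1.78-fold. VIM, the intermediate filament vimentin, fell 1.49-fold from 7022 and 7020 CPM to 4665 and 4768 CPM, the second largest loss of the 10 after CTSD, and AHNAK, a large scaffold protein, fell 1.54-fold from 5258 and 4816 CPM to 3399 and 3146 CPM.

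The other genes were then read through 49 lists of families and pathways, each described by its counts. Among genes with a mean of at least 1 CPM, 36.1% were called higher and 35.6% lower (6.71% and 10.9% by at least 2-fold), and the lists below are read against those shares, as most of their called members are expressed at that level. Lists whose counts lay near both shares, such as forkhead factors (8 higher and 8 lower of 22) and contractile and actin-binding proteins (10 and 8 of 23), showed no more than the background. In these counts only members of at least 1 CPM are included.

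**Figure D3:**
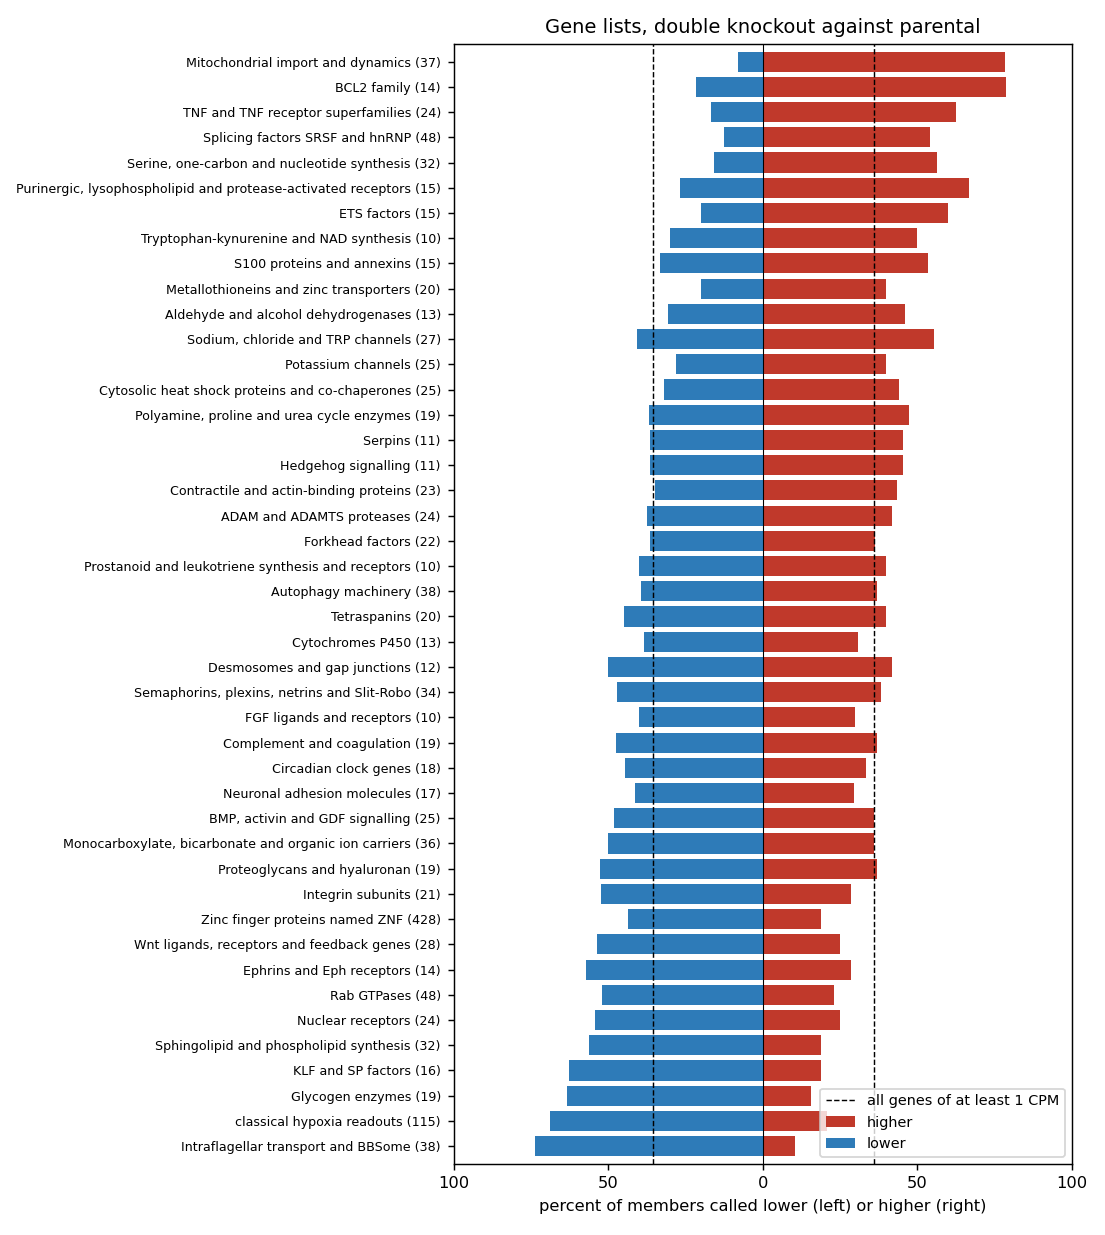
Percent of members called lower (left, blue) and higher (right, red) in double-knockout against parental cells, for each list shown, of at least 10 members at 1 CPM or more (number in brackets), beside the shares over all such genes (dashed lines, 35.6% lower and 36.1% higher). Mitochondrial import, the BCL2 family and the TNF families lie at the higher end, and intraflagellar transport lies at the lower end beside the classical readouts.

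Wnt genes fell more often than they rose, and Hedgehog genes were divided. Of 28 Wnt ligands, receptors and feedback genes 15 fell and 7 rose, with a median log2 fold change of -0.44. The receptor FZD1 fell from 78.4 and 79.4 CPM to 15.2 and 14.3 CPM, the R-spondin receptor LGR4 from 33.9 and 34.8 CPM to 5.27 and 6.80 CPM, and the feedback inhibitor NKD2 16.9-fold. The ligand WNT5B went the other way, from 2.86 and 3.22 CPM to 17.7 and 18.6 CPM. Of 11 Hedgehog genes 5 rose and 4 fell. Besides SMO, the co-receptor CDON fell 9.82-fold from 88.5 and 84.7 CPM and the receptor and pathway target PTCH1 fell 4.62-fold from 18.5 and 18.2 CPM. The count of raised Hedgehog genes among all 14 tested was 5, and 3 without parental replicate 2 or without double-knockout replicate 1.

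FGF, activin and guidance genes changed in both directions, some by a large factor. FGF5, a secreted growth factor, rose 21-fold from 2.70 and 2.96 CPM to 60.7 and 58.2 CPM, whereas the receptors FGFR2 and FGFR4 fell 11.7-fold and 3.75-fold, FGFR4 from 73.4 and 72.5 CPM. INHBA, the subunit of activin A, rose 11.9-fold from 32.4 and 31.6 CPM to 393.5 and 368.3 CPM, and SMAD9, a transducer of BMP signals, fell 21.8-fold from 7.04 and 6.13 CPM. Of 34 semaphorins, plexins, netrins and Slit-Robo genes 16 fell and 13 rose. SEMA6A fell 14.3-fold from 440.8 and 428.8 CPM and SEMA4G 88.4-fold, and NTNG2, a membrane-bound netrin, rose 23.3-fold to 8.07 and 7.46 CPM. Of 14 ephrins and Eph receptors 8 fell and 4 rose, and while EPHA7 was lost the receptor EPHB1 rose 5.59-fold to 67.4 and 63.5 CPM and the ligand EFNB2 2.51-fold.

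Genes of the TNF and IL1 families rose more often than they fell. Of 24 members of the TNF and TNF receptor superfamilies 15 rose and 4 fell, with a median of 0.53. TNFRSF9, the costimulatory receptor 4-1BB, rose 8.62-fold from 2.16 and 2.29 CPM, and TNFRSF6B, a soluble decoy receptor, rose 5.61-fold from 11.36 and 11.03 CPM to 66.7 and 58.9 CPM. Of 8 genes of the IL1 family and inflammasomes 6 rose and 0 fell. The sensors NLRP1 and NLRP3 rose 8.02-fold and 3.98-fold and the receptor chain IL18R1 7.73-fold, all to under 14 CPM. In the prostanoid list 4 rose and 4 fell of 10. PTGIS, prostacyclin synthase, rose 6.63-fold from 23.8 and 26.0 CPM to 167.6 and 162.4 CPM and stood at 1.61 and 1.57 CPM in VHL-restored cells, 6.69 lower on the log2 scale than in double-knockout cells (adjusted p = 1.3e-29, edgeR).

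Receptors for lipid mediators, nucleotides and proteases rose in 10 of 15 cases and fell in 4. S1PR3, a sphingosine-1-phosphate receptor, rose 15.1-fold from 12.4 and 11.5 CPM to 179.4 and 182.2 CPM. The protease-activated receptors F2R, the thrombin receptor, and F2RL1 fell 10.6-fold and 16.6-fold, from 31.7 and 33.9 CPM and from 19.81 and 19.98 CPM. Components of coagulation shifted as well: TFPI2, a matrix-bound protease inhibitor, rose 9.69-fold from 41.4 and 42.2 CPM to 408.4 and 401.4 CPM, and PROS1, the anticoagulant protein S, fell 30-fold from 113.1 and 116.6 CPM. Of 19 complement and coagulation genes 9 fell and 7 rose, so the family did not move one way. Among all 26 tested receptors of the first list 11 rose, and 7 did without parental replicate 2 or with DESeq2.

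At the cell surface, integrin subunits fell more often than they rose and tetraspanins were divided. Of 21 integrin subunits 11 fell and 6 rose, and of 20 tetraspanins 9 fell and 8 rose. ITGB8, a subunit that activates latent TGF-beta, fell 8.57-fold from 136.2 and 143.5 CPM to 15.2 and 17.5 CPM, and ITGB6, a subunit with the same function, fell 4.53-fold, while VHL-restored cells held 62.4 and 55.8 CPM of ITGB6, above parental cells. TSPAN2 fell 39.0-fold from 132.8 and 147.3 CPM and TSPAN9 7.52-fold from 77.0 and 71.7 CPM. DSC2, a desmosomal cadherin, fell 36.6-fold from 11.5 and 9.70 CPM. The annexins diverged: ANXA6 rose 15.1-fold from 6.40 and 8.12 CPM to 110.6 and 107.9 CPM, and ANXA4, the annexin of highest level among those named, fell 3.60-fold from 652.7 and 654.6 CPM.

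Hyaluronan genes and neuronal adhesion molecules also gave single large changes. HAS3, a hyaluronan synthase, rose 6.47-fold to 22.4 and 21.4 CPM and TNFAIP6, a hyaluronan-binding secreted protein, fell 11.9-fold from 89.9 and 88.8 CPM. NCAM1, the neural cell adhesion molecule, rose 21.7-fold to 5.78 and 4.82 CPM and was at 0 and 0.0715 CPM in VHL-restored cells. Among identity markers PAX2, a transcription factor of the developing kidney, rose 9.21-fold from 1.48 and 1.85 CPM to 15.9 and 14.8 CPM, and CDH16, the kidney cadherin, fell 17.5-fold from 31.9 and 28.7 CPM. CUBN, the scavenger receptor of the proximal tubule, fell 12.9-fold from 6.13 and 6.57 CPM. CD74, the invariant chain of MHC class II, rose 6.44-fold from 7.75 and 7.15 CPM to 48.7 and 47.2 CPM, while CD68, a lysosomal protein of macrophages, fell 2.90-fold, and the summed leukocyte markers given above overlapped between the groups.

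Of the lists in the plot by percent called, the machinery of primary cilia had the largest share of lower members. Intraflagellar transport particles and the BBSome carry cargo along the cilium, and 28 of 38 of their genes fell, 4 rose and 6 did not pass, with a median log2 fold change of -0.44. KIF3C, a kinesin-2 motor subunit, fell 3.57-fold from 44.0 and 41.1 CPM to 11.9 and 12 CPM. WDR60, DYNC2H1 and IFT81, parts of the dynein-2 motor and of the IFT-B particle, fell 3.00-fold, 2.59-fold and 2.59-fold. The changes were moderate, with 7 genes at least 2-fold lower and 0 at least 2-fold higher. Under median centring 22 were still called lower and 6 higher. In VHL-restored cells the 4 named genes lay between 13.3 and 21.7 CPM, and double-knockout cells were further below that level for IFT81 and DYNC2H1 (log2 differences -0.85 and -0.32, adjusted p = 4.9e-09 and 0.0099, edgeR). For KIF3C and WDR60 the differences of -0.21 and 0.18 did not pass (adjusted p = 0.068 and 0.082, edgeR).

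Trafficking and cytoskeletal regulators followed in part. Of 48 Rab GTPases 25 fell and 11 rose, but this balance rested on the scaling: over all 62 tested it was 26 lower and 11 higher, and under median centring 21 lower and 19 higher. RAB17 fell 19.4-fold from 2.43 and 2.21 CPM and RAB9B 4.88-fold from 22.9 and 23.9 CPM. RHOBTB1, an atypical small GTPase, fell 20.2-fold from 18.6 and 19.0 CPM. MYLK, the myosin light chain kinase, fell 5.89-fold from 237.8 and 223.8 CPM to 38.9 and 39.5 CPM and was at 259 and 228 CPM in VHL-restored cells (log2 difference between the engineered lines -2.63, adjusted p = 3.9e-24, edgeR). TPM2, a tropomyosin, and FHL1, a LIM protein of muscle, fell 20.4-fold and 21.6-fold, and ACTN1, alpha-actinin, rose 2.39-fold to 982.4 and 907.3 CPM.

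Channels changed in both directions. Of 27 sodium, chloride and TRP channels 15 rose and 11 fell, and of 25 potassium channels 10 rose and 7 fell. SCN9A, a voltage-gated sodium channel, fell 10.1-fold from 98.9 and 104.2 CPM, and KCNJ15, an inward rectifier, fell from 29.9 and 29.2 CPM to 0.0684 and 0.0388 CPM. The beta subunits of the sodium pump went opposite ways: ATP1B1 fell 5.77-fold from 702.5 and 680.8 CPM to 114.8 and 125.1 CPM, and ATP1B3 rose 2.07-fold from 96.9 and 98.3 CPM to 199.8 and 204.1 CPM. ATP1B1 was the more abundant in parental cells by CPM, a measure that is not per length. Among carriers of organic ions SLC22A11, a urate transporter of the kidney, fell 234.4-fold from 34.9 and 32.5 CPM, and SLCO4C1 35.6-fold from 33.0 and 31.9 CPM while VHL-restored cells kept 21.2 and 20.5 CPM.

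In metabolism beyond glycolysis, genes of membrane lipid synthesis fell more often than they rose, and those of serine and nucleotide synthesis rose more often. Of 32 genes of sphingolipid and phospholipid synthesis 18 fell and 6 rose, with a median of -0.27. LPCAT1, which remodels phosphatidylcholine, fell 10.9-fold from 462.4 and 458.9 CPM to 42.4 CPM in both libraries. SPTLC2 and SPTLC3, subunits of the enzyme that begins sphingolipid synthesis, fell 4.64-fold and 5.67-fold, and both held near-parental levels in VHL-restored cells (148 and 138 CPM, and 31.8 and 32.9 CPM). Of 32 genes of serine, one-carbon and nucleotide synthesis 18 rose and 5 fell. Those changed most were mainly among the 5, such as CTPS2, 5.94-fold lower, and SHMT1, 3.16-fold lower. CTPS1, the other CTP synthase, rose 3.08-fold from 56.4 and 55.8 CPM to 176.9 and 169.1 CPM.

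Other enzyme families gave few but large changes. KMO, which converts kynurenine on the path from tryptophan to NAD, fell 34.8-fold from 141.5 and 146.0 CPM to 4.14 and 4.12 CPM, and PRODH, the first enzyme of proline breakdown, fell 44.2-fold from 42.5 and 40.7 CPM. Both were as low in VHL-restored cells, at 4.43 and 4.90 CPM and at 1.11 and 1.39 CPM. Of 19 glycogen enzymes 12 fell and 3 rose (5 under median centring), and 7 of the 20 tested are also classical readouts. Among those that are not, PPP1R3B, a glycogen-targeting phosphatase subunit, fell 2.89-fold from 146.3 and 144.3 CPM, and GYG1, the glycogenin primer, rose 3.34-fold to 88.7 and 93.8 CPM. CYP1B1, a cytochrome P450 regulated by the aryl hydrocarbon receptor, rose 5.45-fold from 19.4 and 21.6 CPM to 110.1 and 113.8 CPM.

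Among transcription factors the zinc fingers, KLF and SP factors and nuclear receptors fell more often than they rose. Of 428 genes named ZNF 186 fell, 81 rose and the others did not pass, with a median of -0.16. The falls were shallow, as 49 were at least 2-fold lower and 6 at least 2-fold higher. Over all 484 tested the counts were 202 lower and 81 higher, and under median centring 173 and 121. KLF and SP factors fell in 10 of 16 cases and rose in 3, and nuclear receptors in 13 and 6 of 24. The bile acid receptor NR1H4 fell from 19.8 and 18.2 CPM to 0.0342 and 0.0388 CPM, 525-fold lower by the ratio (counting interval 145 to 4343), and the thyroid hormone receptor THRB fell 7.41-fold from 28.5 and 28.7 CPM. VDR, the vitamin D receptor, rose 5.29-fold to 5.95 and 6.49 CPM.

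ETS factors went the other way, with 9 of 15 higher and 3 lower. ETS2 rose 5.00-fold from 16.4 and 17.6 CPM to 88.1 and 81.8 CPM, and ETV4 and ETV5, which respond to receptor tyrosine kinase signalling, rose 5.09-fold and 4.11-fold. ELF3, an epithelial member, fell 3.06-fold. Of the SOX factors SOX9 rose 3.85-fold to 25.1 and 28.1 CPM and SOX4 fell 2.71-fold from 64.8 and 62.8 CPM. FOXA2 and FOXQ1 went from 1.99 and 2.03 CPM and from 2.49 and 2.65 CPM to no count, at least 36.8-fold and 47.1-fold lower, and FOXD1 rose 4.39-fold from 23.8 and 24.1 CPM to 107.3 and 102.9 CPM. In the clock list the paralog of BMAL1, ARNTL2, rose 2.74-fold to 165.5 and 174.2 CPM, while NPAS2 and DBP fell 2.71-fold and 4.39-fold.

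Genes of mitochondrial import and of splicing rose more often than they fell. Mitochondrial import and dynamics had the largest excess of higher over lower members of the lists in the plot, with 29 of 37 genes higher, 3 lower and a median of 0.50. The import channel and motor genes TIMM17A, TIMM23, TIMM44 and TOMM40 rose 2.03-fold, 2.00-fold, 1.94-fold and 1.84-fold, TIMM23 from 71.0 and 72.2 CPM to 144.2 and 142.9 CPM. Of 48 SRSF, hnRNP and related splicing factors 26 rose, 6 fell and the others did not pass, with a median of 0.19 (37 and 3 of all 51 tested under median centring). HNRNPAB rose 2.22-fold from 323.3 and 319.8 CPM, and the member changed most, SRSF12, fell 6.75-fold from 5.02 and 4.72 CPM. HNRNPA1P33, a pseudogene that shares sequence with its parent gene, is uncertain, as the sources used here do not say how shared reads were handled.

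The BCL2 family of apoptosis regulators rose in 11 of 14 cases and fell in 3. BCL2A1, a survival protein, rose 48.0-fold from 0.303 and 0.221 CPM to 12.4 and 12.8 CPM. BID and BAK1, which promote death, rose 2.78-fold and 2.06-fold, and BCL2 itself fell 3.41-fold from 113.1 and 112.7 CPM to 32.7 and 33.5 CPM. Members that promote and members that prevent apoptosis thus rose together. Autophagy genes gave 14 higher and 15 lower of 38 (36.8% and 39.5%), near the shares over all genes of at least 1 CPM (36.1% and 35.6%). Under median centring, which raised the share of higher calls over all genes as well, 17 were higher and 9 lower. Cytosolic chaperones gave 11 higher and 8 lower of 25. The small heat shock protein CRYAB fell 11.7-fold from 101.1 and 98.1 CPM, and the inducible HSPA1A and HSPA1B, near-identical copies whose reads may be split, fell 2.24-fold and 3.48-fold.

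Genes were next read by their order on the chromosomes, taken from RefSeq (GRCh38.p14). Runs of at least 5 adjacent tested genes that were all called in 1 direction and changed at least 2-fold occurred 6 times, all of them lower. One run held IRX3, CRNDE, IRX5, IRX6, MMP2 and LPCAT2, where IRX3 and IRX5, homeobox factors of kidney and limb patterning, fell 7.67-fold and 7.28-fold, from 30.3 and 32.8 CPM and from 6.20 and 7.23 CPM. CRNDE, a noncoding RNA between them, fell 2.27-fold and LPCAT2, a phospholipid enzyme, 3.53-fold. A second run held C4orf47, CCDC110, SORBS2, TLR3 and FAM149A, where FAM149A fell 44.9-fold from 71.6 and 73.2 CPM and TLR3, the sensor of double-stranded RNA, 24.3-fold from 18.7 and 20.2 CPM. In VHL-restored cells TLR3 was as low, at 0.715 and 0.608 CPM, while LPCAT2 was above its parental level, at 22.1 and 21.1 CPM.

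Other runs were JHDM1D, SLC37A3, RAB19, MKRN1 and DENND2A; the pregnancy-specific glycoproteins PSG1, PSG7, PSG11, PSG2, PSG5 and PSG4; and the zinc fingers ZNF763, ZNF844, ZNF20, ZNF625-ZNF20 and ZNF625. DENND2A, a Rab activator, fell 114.7-fold from 14.5 and 16.1 CPM. The last 2 runs are of near-identical or overlapping genes whose reads may be shared. Several calls in the runs were fragile. The call of ZNF763 (adjusted p = 0.049, edgeR) was lost under 10 alternatives (adjusted p between 0.0505 and 0.205), and those of ZNF844, PSG11 and PSG4 under 1 to 5 each.

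Windows of 41 adjacent genes had a median log2 fold change between -0.92 and 0.63, with 95% of them between -0.48 and 0.40. The lowest ran from KIAA1432 to MIR31HG, with 35 genes below 0 and 3 above, and its median in VHL-restored against parental cells was 0.43. The highest ran from CGRRF1 to MNAT1, which lies beside HIF1A on the same chromosome, and 2 more of the 5 highest windows, starting at BAZ1A and ATP6V1D, were on that chromosome too. The third lowest, from SPATA7 to LINC00521, was on it as well.

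The chromosome of HIF1A was therefore followed gene by gene, a choice made after these values were seen and given without a test. Among its genes with a mean of at least 1 CPM, the 280 from its start to FLVCR2, HIF1A included, had a median log2 fold change of 0.37, with 213 above 0 and 173 called higher. The 123 genes from C14orf1 to the end had a median of -0.56, with 103 below 0, 91 called lower and 14 called higher. The turn was placed 86 expressed genes beyond HIF1A and not at HIF1A itself, although its 10 nearest genes before it had a median of 0.50 and its 10 nearest after it -0.09. That place is approximate. The 20 genes from MAP3K9 to ENTPD5, which come before C14orf1, had a median of 0.03 with 10 above 0. The next 20, up to FLVCR2, had 0.40 with 14 above 0. Each double-knockout library showed the turn, at 0.36 and 0.37 before and -0.52 in both after C14orf1, as medians of log2(CPM + 0.5) against the parental mean. In VHL-restored cells the medians were 0.16 and 0.17 before and 0.25 and 0.23 after, so both stretches lay above parental cells there. Of the members named for their lists, SPTLC2, SERPINA1 and ATG2B (log2 fold changes -2.22, -1.71 and -1.41) lie in the stretch from C14orf1 on. ACTN1, also named for its list (log2 fold change 1.26), lies in the stretch before C14orf1. What either stretch contributes to the values of its genes was not tested.

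**Figure D4:**
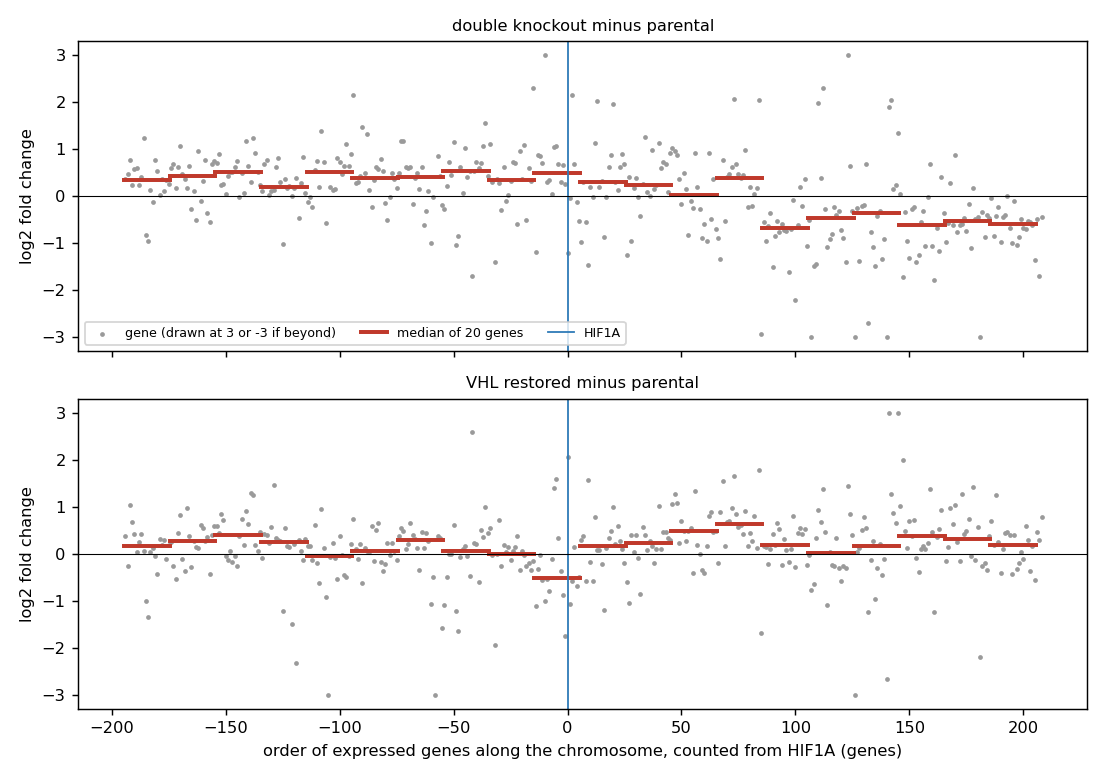
Log2 fold change of each gene with a mean of at least 1 CPM on the chromosome of HIF1A, in gene order from HIF1A (blue line), for double-knockout (top) and VHL-restored cells (bottom) against parental cells, with red bars for medians of 20 successive genes. In the top panel every bar up to 86 genes beyond HIF1A is above 0 and every later bar is below, at -0.67 to -0.37, while the later bars of the bottom panel lie at 0.01 to 0.38.

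The chromosome of EPAS1 showed no such turn. Its 163 expressed genes before EPAS1 had a median of -0.23 and its 665 after -0.20, against 0.01 over all 12687 genes of that level. Near the target the medians were lower, at -0.42 over the 10 genes before (all 10 below 0) and -0.39 over the 10 after. In VHL-restored cells these 10 and 10 genes had medians of 0.09 and -0.26.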

How the data were processed

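The authors deposited 1 table of counts, whole-number reads for 19009 gene symbols in 6 libraries. Although its name says normalized, all values are whole, small integers all occur and totals vary by column, and they were read as raw counts. The tools, per the submitters' processing notes, were HISAT2 2.2.1 and featureCounts 2.0.8, beside Trimmomatic 0.39, FastQC 0.74 and limma 3.58.1. Both hg19 and hg38 appear in the notes and the one behind the counts is unclear, so positions are printed only for promoters. Not given in the sources used here are strand and the handling of shared reads.

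The 18273 genes that had a count in 1 or more libraries were tested with edgeR 4.0.16 in R 4.3.3: TMM scaling (factors 0.977 to 1.02), a model of 3 group means over all 6 libraries, the quasi-likelihood F test and Benjamini-Hochberg adjustment over all genes at 0.05. The biological coefficient of variation was 4.41% (common dispersion 0.00194). Each SE was derived from the F statistic of its fold change, and single values are CPM per library. A fold against a group without a count is a lower bound at 3 counts over the group, and against 1 to 3 counts a ratio with a 95% interval, both for counting error only. The analysis was tested on simulated data.

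Members and lists were chosen with earlier results of these data known, so lists are described by counts, without a test. Named genes are HIF1A, EPAS1, ARNT and VHL, then, outside the readouts and among called genes with at least 1 CPM in the higher group and libraries that do not overlap, the 15 most raised, the 15 most lowered, the 10 with the largest rise and the 10 with the largest fall in CPM, up to 4 members of each list, and all genes of a run of neighbours. Marker genes and genes that bound a window were named as defining ones. Alternatives were RLE scaling, median centring, edgeR's filter on low counts, DESeq2 1.42.0, limma-voom, a fit of 2 groups, a replicate block and leaving out each library. Some genes, 1 list and 1 run of neighbours that these rules select are not reported here.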

Additional observations from a re-analysis of the deposited data

How the results depend on the processing

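The count of genes past an adjusted p of 0.05 was 9888 by edgeR, 8830 with DESeq2, 10215 with limma-voom, 9905 with RLE scaling, 10140 with median centring, 9907 when that centring used genes of at least 1 CPM (chosen after seeing the data), 9959 of 14131 genes after the filter on low counts and 10114 in the fit of 2 groups. Leaving out 1 library gave 7952 to 8904 calls, with 3895 to 4402 higher and 4057 to 4502 lower. A lone library is then assumed to vary like the other groups. With the replicate number as a block 10112 genes were called, 9825 of them shared with the reported fit. The labels do not say whether libraries of the same number belong together. Deviations of same-numbered libraries correlated at 0.131 across genes for parental and double-knockout cells. With VHL-restored cells these correlations were 0.000456 for parental and 0.00576 for double-knockout cells. The block ended no call among named genes other than ZNF763 and GPR64.

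None of the 276 named genes reversed under these alternatives, and the calls that were lost are of VHL, ZNF763, ZNF844, PSG11, PSG4, PPEF1 and GPR64. The rise of VHL in double-knockout cells (log2 fold change 0.21) was no longer called without replicate 1 or 2 of the parental cells or replicate 2 of the knockout (adjusted p = 0.173, 0.120 and 0.215, edgeR). With 2 libraries a group, precision is limited, and genes under 1 CPM were called in 14.6% of cases.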

Other observations

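Some genes changed between near absence and expression, several of them named above. Of 18149 genes tested outside the readouts, 4834 were called higher and 4949 lower. With at least 1 CPM in the higher group, 38 of these rose and 186 fell at least 16-fold, so deep losses outnumbered deep gains at large. Among called genes outside the readouts 10 were switched on, with at most 3 counts over both parental libraries and at least 1 CPM in double-knockout cells. The reverse held for 68. Of the first, KRT4, a keratin of mucosal epithelium, reached 2.09 and 1.59 CPM. Of the second, SGPP2, a sphingosine-1-phosphate phosphatase, fell from 6.74 and 8.42 CPM to 0.0342 and 0 CPM, and RASAL1, a Ras GTPase activator, from 8.02 and 8.42 CPM to 0.0342 and 0 CPM. VHL-restored cells kept 6.58 and 5.68 CPM of SGPP2 and 20.5 and 19.3 CPM of RASAL1. SDPR, the caveolar protein cavin-2, had 1.75 and 0.882 CPM in parental cells, no count in double-knockout cells and 98.6 and 101.0 CPM in VHL-restored cells. These genes were chosen after their values were seen.

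Small nucleolar RNAs, which guide RNA modification and mostly sit in introns of other genes, rose more often than they fell. Of 255 tested 25 were called higher (9.80%) and 2 lower (0.784%), with a median log2 fold change of 0.38. Both shares lay below those over all genes tested (26.6% higher and 27.5% lower), so these RNAs were called less often than genes at large. Most lie at low levels and within host genes, so their reads and those of the hosts cannot be told apart here. Long noncoding RNAs leaned the other way, with 112 of 787 higher and 160 lower, against 4568 and 4599 of 15527 protein-coding genes.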
